A study of Homo sapiens with 7 samples.

Results

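Nuclear receptors are transcription factors that many small lipophilic molecules switch on or off, and in liver they couple bile acid, sterol, fatty acid and drug levels to the genes that handle these compounds. The 10 genes described here encode the receptors best known for that role: NR1H3 (LXR alpha), NR1H4 (FXR), NR1I2 (PXR), NR1I3 (CAR), PPARA, RXRA, NR0B2 (SHP), NR5A2 (LRH-1), RORA and ESRRA. They were chosen by symbol, not by a measured value, and each matched 1 of the 58174 genes in the deposited table. Their level was compared between 2 groups of Huh-7 cells, a hepatocellular carcinoma line grown in DMEM with 10% FBS. In siC (3 libraries) the cells had received a control siRNA, and in siImp1 (4 libraries) a siRNA pool against IGF2BP1, of which Imp1 is another name. All cells were harvested 72 h after transfection. IGF2BP1 is an oncofetal RNA-binding protein, and the study asked which transcripts depend on it. Both groups come from 1 line, with 1 control siRNA and 1 pool, so an effect of the pool apart from IGF2BP1 cannot be told apart from an effect of IGF2BP1.

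LXR alpha, FXR, PXR, CAR and PPARA bind DNA mainly as heterodimers with RXRA and answer to oxysterols, bile acids, foreign compounds (PXR and CAR) and fatty acids. SHP has no DNA-binding domain of its own, is induced by FXR in liver and represses other receptors, LRH-1 among them. LRH-1, RORA and ESRRA bind DNA as monomers or homodimers. RORA is known for driving clock genes and ESRRA for mitochondrial genes.

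IGF2BP1 is known for shielding transcripts from microRNAs, so seed matches of the let-7 family and of miR-122, the main microRNA of hepatocytes, are shown first for the receptors. The mature sequences are those of RefSeq on GRCh38.p14, with the seed, bases 2 to 8, in capitals.
hsa-let-7a-5p: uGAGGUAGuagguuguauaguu
hsa-miR-122-5p: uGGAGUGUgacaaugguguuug
Exact complements of these seeds (CTACCTC and ACACTCC, sense strand of the transcript only) were searched in the 3′UTR of the main transcript of each receptor. The PXR gene had 1 let-7 match, at chr3:119817629-119817650 (GRCh38, plus strand), and the RORA gene 1 miR-122 match, at chr15:60496254-60496275 (minus strand). The matched bases are in capitals.
NR1I2: gagtcttttcattgCTACCTCt
RORA: tcctgagcaaatgcACACTCCc
The other 8 receptor 3′UTRs held neither seed match, among them the 8375 bases of PPARA and the 356 bases of NR0B2. Over the 10624 tested genes with an annotated 3′UTR, 11.2% held the let-7 match and 8.4% the miR-122 match. Among 802 genes with a 3′UTR of 5000 to 12000 bases, the range in which PPARA and RORA (9171 bases) lie, the shares were 33.8% and 24.3%. A match is a description of the letters and not evidence of a functional site.

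Values are FPKM, fragments scaled to gene length and library size, so comparisons of levels between genes depend on the length used. That length was 4533 bases for NR1H3, whose main transcript has 1852, and 1156 bases for NR0B2, whose main transcript has 1165. Orders of genes by level are orders of these FPKM values. Libraries held 12826550 to 33212205 reads on genes. IGF2BP1 was at 81.9, 80.4 and 84.4 FPKM in siC replicates 1 to 3 and at 15.6, 15.7, 16.6 and 15.3 FPKM in siImp1 replicates 1 to 4. The groups lay far apart, with 19.2% of the siC mean left (log2 change −2.37, SE 0.0558, adjusted p = 1.2e-05). The hepatocyte markers reported here were all expressed, from 14.1 FPKM (TTR) upward. None of them passed the threshold with all libraries, and with siC replicate 3 left out TF passed as higher and TTR and FGB as lower, a movement whose part in the receptor values was not tested. Of 12 markers of other liver cells, 10 had a mean under 1 FPKM, KRT7 was listed at 0 throughout, PECAM1 lay between 2.58 and 3.29 FPKM, and SOX9, a cholangiocyte and progenitor marker, fell from 28.4–36.9 to 18.3–19.4 FPKM (log2 change −0.73, adjusted p = 0.0051). On the first principal component, which held 34.5% of the variance, siC replicate 3 lay far from the other 6. The receptor values are therefore given with and without siC replicate 3, and the part of the SOX9 change in them was not tested.

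In siC, NR1H4 was the most abundant of the 10 receptors and NR1I3 was at the edge of detection. NR1H4 (chr12:100473708-100564414, plus strand, 11 exons), the bile acid receptor FXR, was at 44.9, 47.8 and 54.9 FPKM in siC and at 49.1, 49.6, 48.7 and 49.6 FPKM in siImp1. The siImp1 libraries lay inside the siC range. NR5A2 (chr1:200027614-200177420, plus strand, 8 exons), which encodes LRH-1, an activator of bile acid and sterol genes, was at 15.1, 15.3 and 17.7 FPKM in siC and at 15.5, 15.3, 15.0 and 16.1 FPKM in siImp1. Again the groups overlapped, and siC replicate 3 was the highest library for both genes.

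RXRA (chr9:134317098-134440585, plus strand, 10 exons), the common heterodimer partner, was at 16.9, 16.1 and 12.1 FPKM in siC and at 13.5, 12.5, 15.2 and 14.5 FPKM in siImp1. ESRRA (chr11:64305497-64316743, plus strand, 7 exons), an orphan receptor that works with PGC-1 coactivators, was at 15.1, 15.7 and 12.1 FPKM in siC and at 12.5, 10.5, 13.8 and 12.4 FPKM in siImp1. For both genes siC replicates 1 and 2 lay above all siImp1 libraries and siC replicate 3 lay below 4 of 4 siImp1 libraries for RXRA and below 3 of 4 for ESRRA. NR1H3 (chr11:47248300-47269033, plus strand, 10 exons), the oxysterol receptor LXR alpha, was at 6.70, 6.91 and 4.74 FPKM in siC and at 6.18, 5.59, 6.78 and 6.78 FPKM in siImp1. Here too siC replicate 3 was the lowest library.

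NR0B2 and PPARA were the 2 tested receptors whose groups did not overlap. NR0B2 (chr1:26911489-26913975, minus strand, 2 exons), the gene of the corepressor SHP, was at 4.20, 4.92 and 4.02 FPKM in siC and at 2.67, 2.58, 1.89 and 2.67 FPKM in siImp1. Each siImp1 library was below each siC library, and siImp1 replicate 3 was the lowest. PPARA (chr22:46150521-46243755, plus strand, 9 exons), the fatty acid receptor of hepatocytes, was at 2.42, 2.64 and 2.43 FPKM in siC and at 1.92, 1.90, 1.88 and 1.71 FPKM in siImp1. The highest siImp1 library, at 1.92 FPKM, was below the lowest siC library, at 2.42 FPKM.

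NR1I2, RORA and NR1I3 had a mean under 1 FPKM and were not tested across groups in the main comparison. NR1I2 (chr3:119780484-119818487, plus strand, 9 exons), the xenobiotic receptor PXR, was at 0.451, 0.342 and 0.284 FPKM in siC and at 0.421, 0.337, 0.393 and 0.573 FPKM in siImp1, from 21 to 59 reads per library. RORA (chr15:60488284-61229302, minus strand, 11 exons) was at 0.126, 0.154 and 0.205 FPKM in siC and at 0.220, 0.341, 0.288 and 0.244 FPKM in siImp1, from 47 to 109 reads. The NR1I2 groups overlapped and the RORA groups did not. NR1I3 (chr1:161229666-161238244, minus strand, 9 exons), the receptor CAR, had 1, 2 and 0 reads in siC and 2, 2, 1 and 1 reads in siImp1. All 7 counts were under a floor of 3 reads, which equals 0.0283 to 0.0699 FPKM, so no fold change is given.

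**Figure D1:**
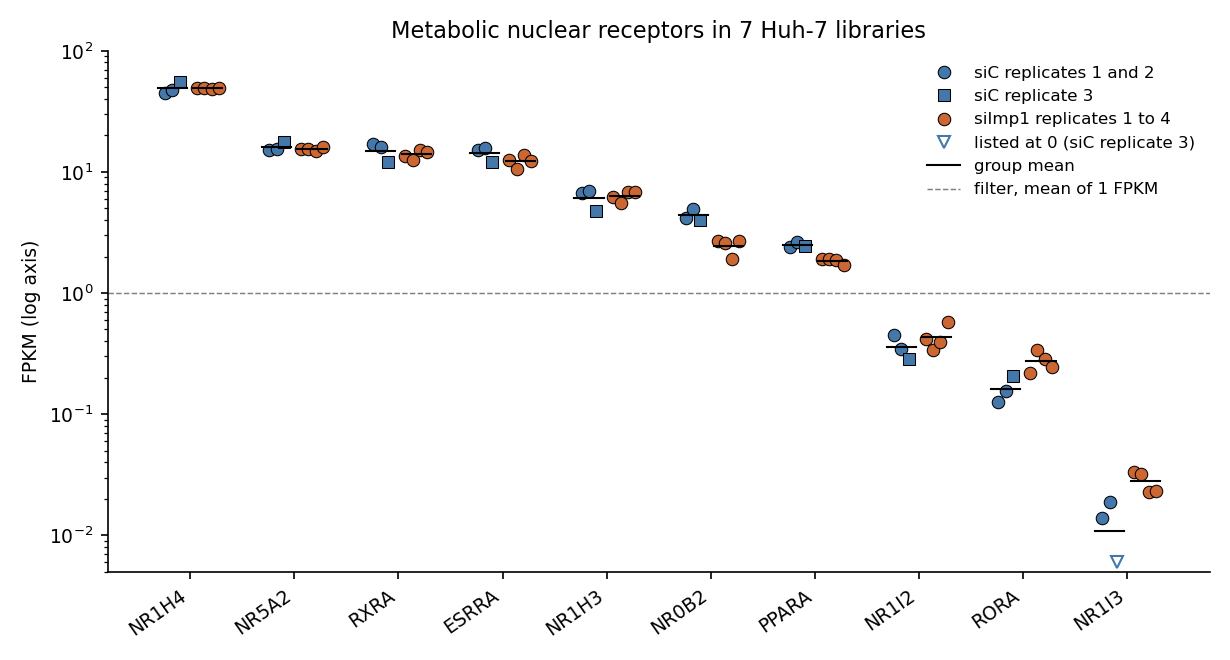
FPKM (log axis) of the 10 receptors in each library, ordered by siC mean. Blue marks are siC (square: replicate 3), orange circles siImp1, black lines group means, the open triangle a value listed at 0 and the dashed line the filter of 1 FPKM. NR0B2 and PPARA show separated groups above the dashed line, and NR1H4 lies near 49 FPKM in both groups.

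The order of mean FPKM, which depends on the gene lengths used, was the same in both groups: NR1H4, NR5A2, RXRA, ESRRA, NR1H3, NR0B2, PPARA, NR1I2, RORA and NR1I3. NR5A2 and RXRA overlapped in their library ranges in both groups, as did RXRA and ESRRA. NR1H4 did not overlap with its neighbour in either. NR0B2 and PPARA did not overlap in siC (lowest NR0B2 library 4.02, highest PPARA library 2.64 FPKM) and overlapped in siImp1 (1.89 and 1.92 FPKM). RORA and NR1I2 likewise overlapped in siImp1 and not in siC, whereas NR1H3 and NR0B2 overlapped in siC and not in siImp1.

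Within the whole nuclear receptor family of 48 genes, NR1H4 had rank 2 by mean FPKM over the 7 libraries. It followed NR2F6, an orphan receptor of the COUP-TF group (92.1 FPKM), and was close to HNF4A, a master regulator of hepatocyte genes (48.0 FPKM). Next came NR6A1, an orphan receptor of germ cells and embryos (22.6 FPKM). The 10 metabolic receptors took 26.7%, 27.0% and 28.5% of the summed FPKM of the family in siC and 26.1%, 26.2%, 26.2% and 26.4% in siImp1. Each siImp1 share was below each siC share, though siC replicate 1 (26.7%) and siImp1 replicate 4 (26.4%) lay close. How often other sets of genes lie apart in this way was not tested. In every library 7 of the 10 were at or above 1 FPKM.

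**Figure D2:**
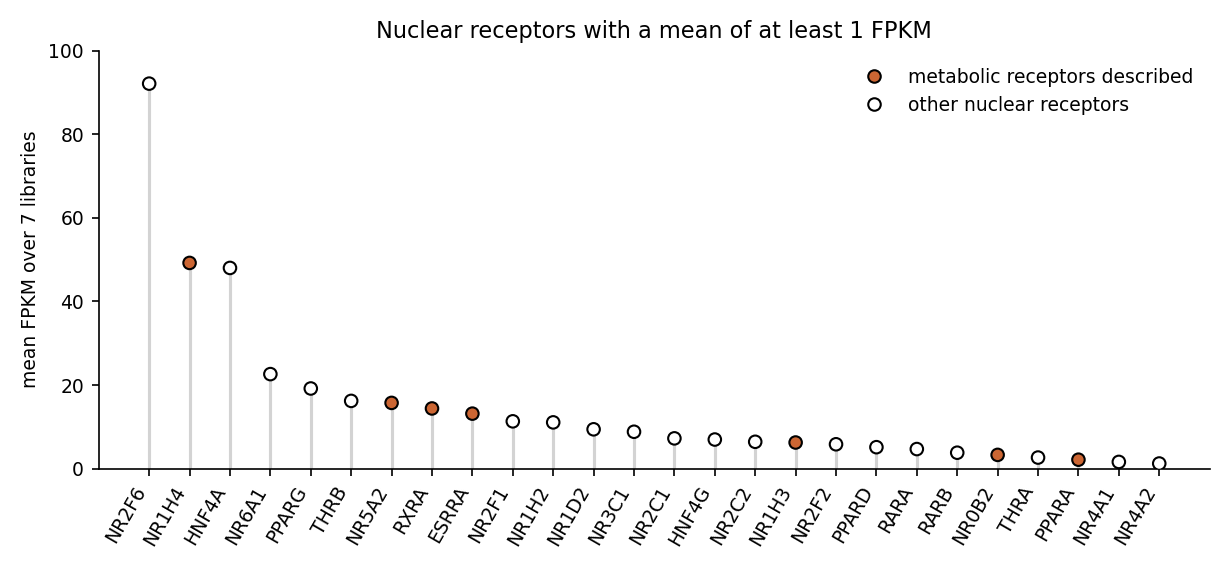
Mean FPKM over the 7 libraries of each nuclear receptor that averaged 1 FPKM or more, in falling order. Orange points are the metabolic receptors described and white points the rest of the family. NR1H4 stands next to NR2F6, the highest, and PPARA is among the lowest shown.

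The groups were then compared with limma, a linear model fitted on log2(FPKM + 0.1) over the 14839 genes that averaged 1 FPKM or more, siImp1 minus siC. Tests were two-sided, p-values were adjusted by Benjamini-Hochberg over all these genes, and the threshold was 0.01. Of the 10 receptors 7 were tested and 0 passed. Over all tested genes 2.28% passed as lower (338) and 1.65% as higher (245), a split that became 237 lower and 341 higher when libraries were scaled to total reads. Nothing in the labels says that replicates were separate cultures, so p-values measure the spread between these libraries, which may be technical. At an unadjusted p under 0.05, 2 of the 7 were found, NR0B2 and PPARA, both lower in siImp1, a share close to the 25.9% of all tested genes. The same 2 passed at an adjusted p of 0.05, where 6.81% of all genes were called lower, and the same 2 had groups that did not overlap, against 15.1% of all tested genes with siImp1 below siC and 11.9% above. The median log2 change of the 7 was −0.095, and that of all tested genes −0.017. Without siC replicate 3 these medians were −0.244 and −0.031. In both fits the median of the 7 was the value of RXRA.

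NR0B2 was at 56.0% of its siC mean in siImp1, with 4.38 ± 0.473 FPKM in siC (SD, n = 3) and 2.45 ± 0.376 FPKM in siImp1 (SD, n = 4). Its log2 change was −0.82 with an SE of 0.146 and a 95% interval from −1.16 to −0.48, and its adjusted p of 0.0147 in limma missed the threshold of 0.01. The values rest on 64 to 182 reads in siC and 29 to 56 reads in siImp1. NR0B2 passed in some settings that gave more calls, such as with only protein-coding genes tested (adjusted p = 0.00595; 4.79% of those genes lower) and with library weights in limma (adjusted p = 0.00231; 11.6% lower). It did not pass in others that also gave more calls, among them voom (adjusted p = 0.0101), the GC trend removed and the fit without siC replicate 3. Without siImp1 replicate 3, its lowest library, the log2 change was −0.70 (adjusted p = 0.0209 in limma).

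PPARA was at 74.3% of its siC mean, with 2.50 ± 0.125 FPKM in siC (SD, n = 3) and 1.85 ± 0.0945 FPKM in siImp1 (SD, n = 4). Its log2 change was −0.41 with an SE of 0.0983 and a 95% interval from −0.64 to −0.18, and its adjusted p was 0.0400 in limma. With voom, which weighs the reads recovered from the FPKM values, the adjusted p was 0.00832 (3.3% of all genes lower), and with library weights 0.00596. Leaving out any library but siC replicate 3 raised the adjusted p to between 0.0857 and 0.152. The log2 change stayed between −0.37 and −0.43 in these fits.

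For the remaining 5 tested receptors the interval of the change gives what these libraries could show. NR1H4 had a log2 change of 0.01 with a 95% interval from −0.18 to 0.19. NR5A2 had a log2 change of −0.05 (−0.22 to 0.12). RXRA had a log2 change of −0.09 (−0.40 to 0.21) and ESRRA of −0.21 (−0.50 to 0.08). The change of NR1H3 was 0.06 (−0.28 to 0.41). Adjusted p-values in limma ran from 0.345 for ESRRA to 0.974 for NR1H4. The intervals of NR1H4 and NR5A2 are narrow and leave no room for a change as large as that fitted for NR0B2 or PPARA, while those of RXRA, ESRRA and NR1H3 are about as wide as the one of NR0B2.

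The width of those intervals moved with siC replicate 3. Relative to the mean of siC replicates 1 and 2, its log2 value was −0.51 for NR1H3, −0.45 for RXRA and −0.35 for ESRRA, whose transcripts have 59.3%, 63.6% and 65.1% G and C bases. It was 0.25 for NR1H4 and 0.21 for NR5A2, at 40.2% and 45.5%, and −0.06 for PPARA and −0.17 for NR0B2, at 54.2% and 59.3%. Across all tested genes the Spearman correlation of a library's deviation with GC content was 0.420, 0.283 and −0.411 for the siC libraries in order of number, and between −0.394 and 0.262 for siImp1, a description over genes of the same libraries.

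Without siC replicate 3 the log2 change of RXRA was −0.24 (adjusted p = 0.0810) and that of ESRRA −0.33 (adjusted p = 0.0654), both further from 0, and that of NR1H3 turned from 0.06 to −0.11 (adjusted p = 0.442). NR5A2 turned from −0.05 to 0.02. NR0B2 (−0.88, adjusted p = 0.0126) and PPARA (−0.43, adjusted p = 0.0318) kept their direction and their side of the threshold. With each library's trend on GC content removed, NR0B2 was at −0.79 (adjusted p = 0.0166) and PPARA at −0.38 (adjusted p = 0.0447), so both were close to their first values. In that limma fit, with all libraries, RXRA was at −0.06 (adjusted p = 0.511) and ESRRA at −0.17 (adjusted p = 0.128). NR1H3 was at 0.09 there (adjusted p = 0.470). The shift of RXRA and ESRRA away from 0 without siC replicate 3 was thus not seen with the GC trend removed. Without siC replicate 3, too, 0 of 7 receptors passed, where 6.67% of the 14814 genes tested were called lower and 3.6% higher.

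**Figure D3:**
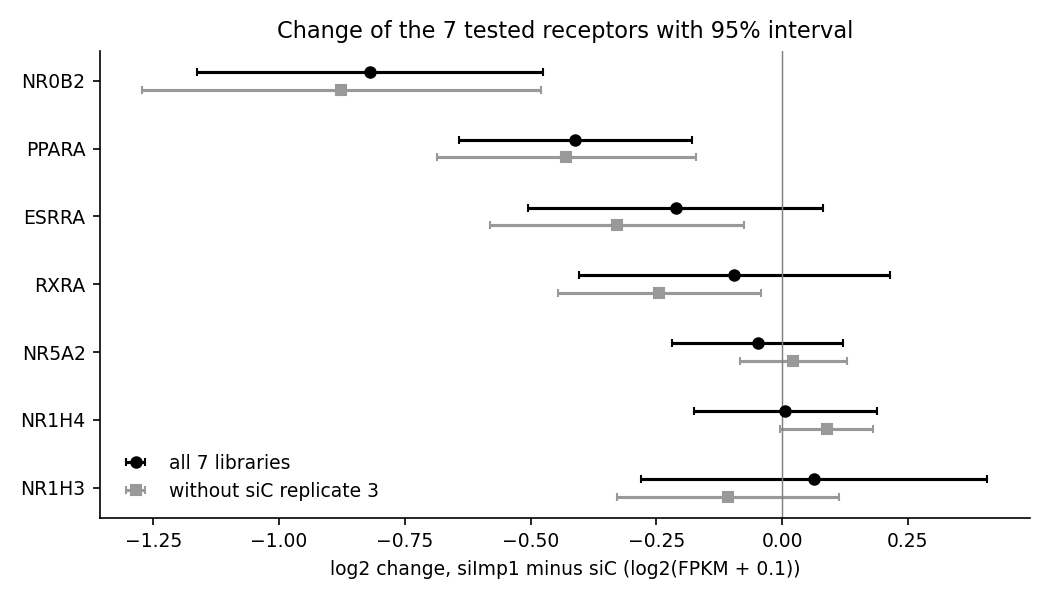
Log2 change (siImp1 minus siC, on log2(FPKM + 0.1)) of the 7 tested receptors with its 95% interval, from all 7 libraries (black circles) and without siC replicate 3 (grey squares). NR0B2 and PPARA lie left of 0 in both fits, and the interval of RXRA and of ESRRA moves off 0 without that library. With the GC trend removed, a fit not shown here, RXRA was at −0.06 and ESRRA at −0.17.

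Of the receptors under the filter, RORA had the clearest difference. Its siImp1 mean was 0.273 ± 0.0532 FPKM (SD, n = 4) against 0.162 ± 0.0397 FPKM (SD, n = 3) in siC. Among the 17253 genes with a mean of at least 10 reads, 13.1% had siImp1 values all above siC, as RORA had. With no filter on low values the log2 change was 0.51 (adjusted p = 0.391 in limma), a scale on which the pseudocount of 0.1 shrinks a gene at this level. With voom over those 17253 genes, a choice made after the values were seen, it was 0.81 (adjusted p = 0.0332). For NR1I2 the 2 fits gave 0.21 (adjusted p = 0.734) and 0.21 (adjusted p = 0.602).

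The level of each receptor relative to RXRA does not depend on how libraries were scaled. NR1H4 stood at 2.66, 2.97 and 4.56 times the RXRA level in siC and at 3.64, 3.96, 3.21 and 3.41 times in siImp1. NR1H3 stood at 0.397, 0.430 and 0.394 in siC and at 0.459, 0.446, 0.446 and 0.466 in siImp1. The NR1H3 ratio was thus higher in every siImp1 library, and its groups did not overlap although those of NR1H3 and RXRA themselves did; 13.5% of all tested genes had ratios to RXRA that lay apart in this direction. PPARA stood at 0.143, 0.164 and 0.202 in siC and at 0.143, 0.151, 0.124 and 0.118 in siImp1, with overlap. The spread of the siC ratios was small for NR1H3 (SD 0.0201), whose deviation in siC replicate 3 was near that of RXRA, and large for NR1H4 (SD 1.02), whose deviation had the opposite sign.

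**Figure D4:**
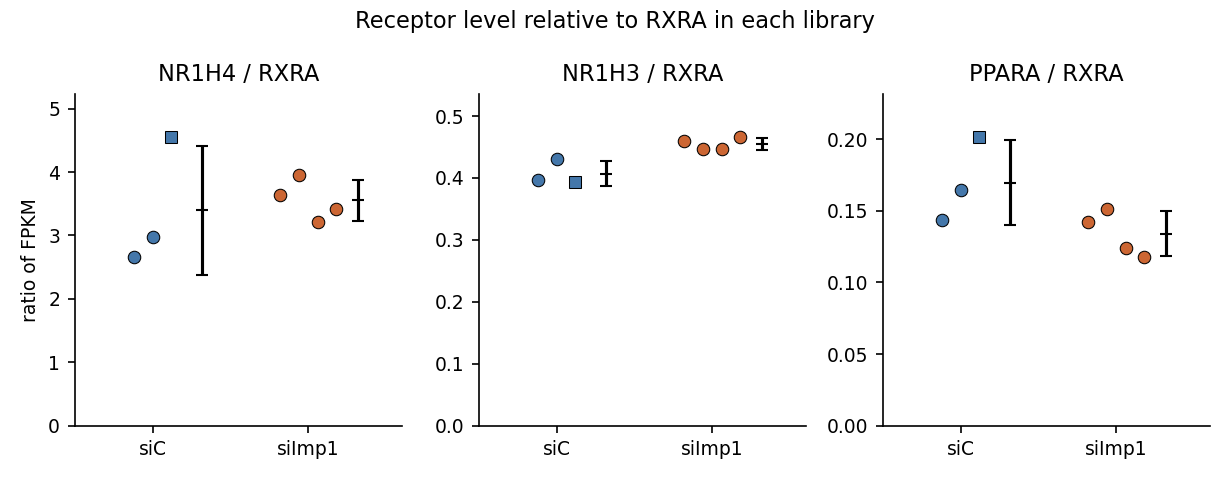
FPKM of NR1H4, NR1H3 and PPARA divided by that of RXRA in the same library (each axis starts at 0). Blue marks are siC (square: replicate 3), orange circles siImp1, and the black bars mean ± SD of 3 and 4 libraries. The groups are apart for NR1H3 and overlap for NR1H4 and PPARA.

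Of the 10 receptor genes, 4 share exonic bases with a protein-coding gene. NR1I3 shares 20.4% of its exonic bases with TOMM40L on the other strand (18.6 to 24.7 FPKM), ESRRA 9.2% with TRMT112 (26.6 to 51.3 FPKM) and NR1H3 4.2% with ACP2 (8.01 to 10.7 FPKM). NR1I2 shares 4.1% with a gene on its own strand that was not analysed here. RORA shares 3.3% with RORA-AS1, a non-coding gene on the other strand at 0.405 to 0.785 FPKM, above the level of RORA itself. The libraries were made with a strand-marking kit, but whether strand was used in counting is not given in the sources used here. The levels of ESRRA, NR1H3 and RORA and the few reads of NR1I3 are uncertain to that extent. NR0B2 lies within the span of NUDC on the other strand (40.3 to 52.1 FPKM) and shares no exonic bases with it, and PPARA overlaps no protein-coding gene.

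RXRA and NR1H3 have paralogs that can take their place, and these 3 genes are named here after their values were seen. RXRB, which lies in a region with alternate haplotypes so that its level is uncertain, was at 0.491 to 0.866 FPKM, and RXRG was listed at 0 in every library, so RXRA was the RXR gene with the highest level. NR1H2, which encodes LXR beta, was at 10.5, 11.0 and 7.30 FPKM in siC and at 12.1, 11.1, 12.3 and 13.2 FPKM in siImp1, above NR1H3 in each library (log2 change 0.36, adjusted p = 0.182 in limma, and 0.17 without siC replicate 3). Of the 38 other receptors 19 were tested and 0 passed the threshold, with 7 at an unadjusted p under 0.05 (25.9% of all genes), 1 called higher and 1 lower at an adjusted p of 0.05, and a median log2 change of −0.019. Without siC replicate 3, a fit with 1521 calls over all genes instead of 583, 2 of 19 passed, both higher, and the median was −0.091. The log2 change was −0.04 for NR2F6, 0.08 for HNF4A (−0.10 without siC replicate 3) and −0.02 for NR6A1.

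Coregulators are the proteins that receptors recruit to switch genes on or off. Of the 18 listed, 16 were tested and 2 passed, 1 as higher and 1 as lower, where 1.65% and 2.28% of all tested genes did. At an unadjusted p under 0.05 in limma there were 6 of the 16, against 25.9% of all tested genes. TBL1X, a subunit of the NCoR corepressor complex, rose from 6.33–7.44 FPKM in siC to 9.57–11.4 FPKM in siImp1 (log2 change 0.63, SE 0.0911, adjusted p = 0.0071 in limma). MED1, the Mediator subunit that contacts receptors, fell from 14.9–15.3 to 11.6–12.4 FPKM (log2 change −0.34, SE 0.0535, adjusted p = 0.0097). Neither call was kept in the 6 fits that left out a library other than siC replicate 3, which called 128 to 196 genes in all, while the log2 changes stayed at 0.58 to 0.67 for TBL1X and −0.35 to −0.32 for MED1. Both passed without siC replicate 3 (0.70 and −0.33). The most abundant coregulators, NCOA2, TBL1XR1 and NCOR1, had means of 29.5, 26.6 and 21.6 FPKM in siC and 28.1, 20.2 and 22.8 FPKM in siImp1, and none of the 3 passed. The log2 change of TBL1XR1 was −0.37 with all libraries and −0.15 without siC replicate 3. The median log2 change of the 16 was −0.032 (0.005 without that library).

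Enzymes and binding proteins that make or remove bile acids, oxysterols and retinoids set how much ligand the receptors see. Of the 20 listed, 10 were tested and 0 passed, with 2 at an unadjusted p under 0.05, below the 25.9% of all genes, and a median log2 change of 0.047. The highest were ALDH1A1, which makes retinoic acid (315.1 ± 39.6 FPKM in siC and 318.5 ± 33.1 in siImp1, SD), DHRS3, a retinal reductase (25.2 and 28.4 FPKM), and RDH11, a retinol dehydrogenase (19.4 and 20.4 FPKM). At an adjusted p of 0.05 AKR1D1, a bile acid synthesis enzyme named here after its values were seen, was higher in siImp1 (0.707 to 0.903 against 1.35 to 2.05 FPKM, adjusted p = 0.0323 in limma). AKR1D1 averaged 0.795 FPKM in siC, so it met the filter of 1 FPKM only through siImp1.

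Known target genes of the receptors were described next, from lists taken from general knowledge and grouped by receptor. These lists were chosen with earlier results of these data known. Of the 56 listed, 34 were tested, 6 passed as higher and 1 as lower, where 1.65% and 2.28% of all tested genes did. The median log2 change of the 34 was 0.319, and that of all tested genes −0.017. At an adjusted p of 0.05, 10 were higher and 2 lower, where 4.74% and 6.81% of all genes were. The groups did not overlap for 17 genes with siImp1 above and for 3 with siImp1 below. Over all tested genes these shares were 11.9% and 15.1%. By receptor the tested genes had median log2 changes of 0.353 for LXR (6 genes), 0.188 for FXR and SHP (5), 0.472 for PXR and CAR (6), 0.683 for PPARA (9), −0.126 for RORA (2), −0.230 for ESRRA (4) and 0.267 for NR5A2 (2). Without siC replicate 3 the median of the 34 was 0.303, that of the FXR and SHP genes 0.302 and that of the RORA genes −0.018. Among the genes higher at 0.05, UGT1A1 and ANGPTL4, the latter named after its values were seen, averaged 0.501 and 0.673 FPKM in siC. These 2 thus met the filter of 1 FPKM only through siImp1. Both are part of the medians and counts above, which they raise, and medians without them were not computed. With the filter at a mean of 5 FPKM, which neither meets, 4 of 24 targets passed as higher and 1 as lower. Over all 7952 genes tested there, 169 passed as higher and 299 as lower. Many of the listed genes answer to several receptors and to other factors, and no receptor gene passed the threshold itself.

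ABCA1, the cholesterol exporter on the LXR list, rose from 21.4, 22.0 and 22.6 FPKM in siC to 38.1, 39.4, 37.6 and 37.2 FPKM in siImp1 (log2 change 0.79, SE 0.0530, adjusted p = 0.000536 in limma). KNG1, kininogen, on the FXR list, rose from 8.55–11.4 to 19.1–20.9 FPKM (log2 change 0.96, adjusted p = 0.0027). For both genes each siImp1 library lay well above each siC library. On the PXR and CAR list UGT1A1, which conjugates bilirubin, rose from 0.431–0.552 to 2.13–2.71 FPKM (log2 change 2.04), and ABCB1, the drug efflux pump, from 9.04–9.39 to 13.2–13.8 FPKM (log2 change 0.55). UGT1A1 averaged 0.501 FPKM in siC, so it met the filter of 1 FPKM only through siImp1. It shares its last exons with the other UGT1A genes. How reads were divided among them is not given in the sources used here, so the UGT1A1 level is uncertain.

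On the PPARA list PLIN2, a lipid droplet protein, rose from 33.9–34.8 to 53.4–57.5 FPKM (log2 change 0.68), and CREB3L3, a hepatocyte transcription factor of lipid metabolism, from 2.52–2.86 to 4.06–5.62 FPKM (log2 change 0.85). Of the 9 tested PPARA targets 8 had a positive log2 change and 2 passed, whereas the PPARA transcript itself was lower in every siImp1 library. The 9 include ANGPTL4, which met the filter of 1 FPKM only through siImp1. Under the filter, PDK4 averaged 0.23 FPKM in siC and 0.12 in siImp1, and VNN1 0.25 and 0.21. FGF21, with few reads, averaged 0.042 and 0.077 FPKM, and CYP4A11 was listed at 0. These genes are named after their values were seen. IDH3A, a subunit of the mitochondrial isocitrate dehydrogenase on the ESRRA list, fell from 9.24–9.92 to 6.65–7.20 FPKM (log2 change −0.45, adjusted p = 0.0054). It was 1 of 4 ESRRA targets, all tested. The most abundant of all the listed targets were SCD, ATP5B and APOE, at 496.7, 430.0 and 327.9 FPKM in siC and 610.7, 382.7 and 452.8 FPKM in siImp1, and none of the 3 passed. APOE was at 192.1 FPKM in siC replicate 3 against 407.3 and 384.3 FPKM in the other 2 siC libraries, and its log2 change was 0.54 with and 0.19 without that library, while that of SCD was 0.30 and 0.22 and that of ATP5B −0.17 and −0.24. Without siC replicate 3, 8 of the 34 targets passed as higher and 2 as lower, and leaving out any other library left 3 or 4, all higher. These counts moved as those of all genes did, with 1521 calls in the first fit, 128 to 196 in the others and 583 with all libraries. ABCA1 and KNG1 had log2 changes of 0.81 and 0.83 without siC replicate 3, and both passed.

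**Figure D5:**
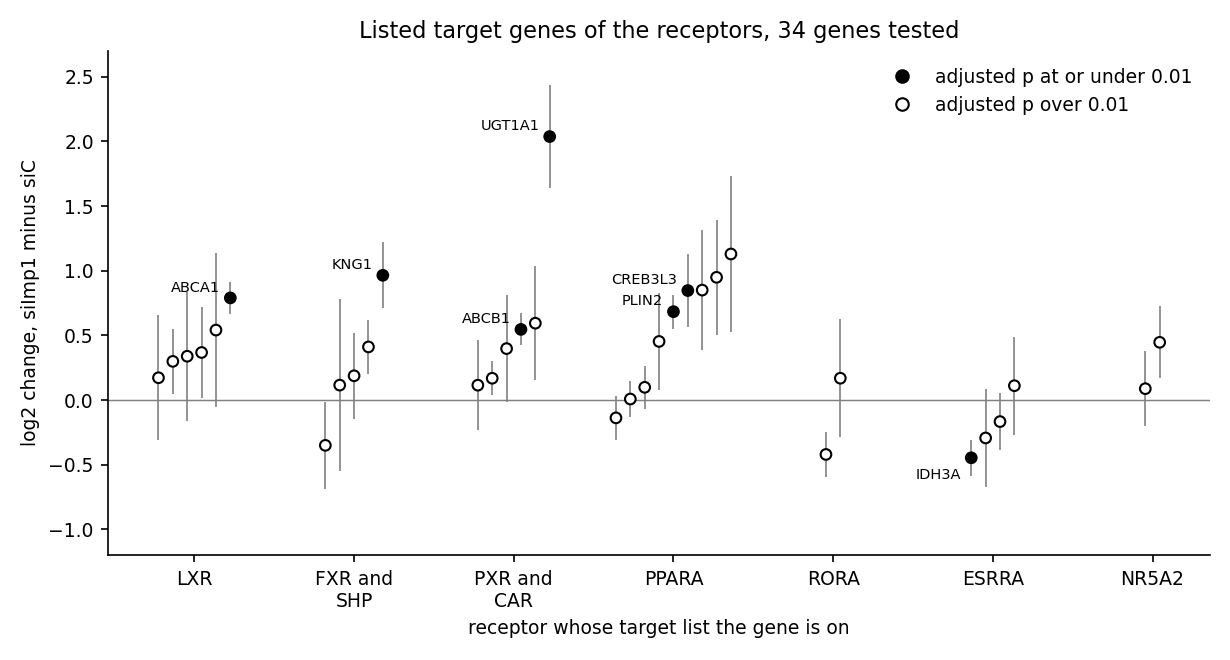
Log2 change (siImp1 minus siC) of the 34 tested target genes with its 95% interval, grouped by the receptor on whose list each stands. Filled points passed an adjusted p of 0.01 and carry their symbol. Of the filled points 6 lie above 0, with UGT1A1 highest at 2.04, and IDH3A lies below 0. UGT1A1 averaged under 1 FPKM in siC.

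Target genes with a mean under 1 FPKM were 22 of the 56. They included CYP7A1, the rate-limiting enzyme of bile acid synthesis and a gene that SHP represses, with a value above 0 in 1 of 7 libraries, and CYP8B1 and CYP4A11, listed at 0 in all. These 3 are named after their values were seen. CYP8B1, like CYP7A1, belongs to bile acid synthesis, and CYP4A11, a fatty acid hydroxylase, is on the PPARA list. NR1H4, NR0B2 and PPARA were above 1 FPKM in the same libraries.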

How the data were processed

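Total RNA was depleted of ribosomal RNA by the authors and made into libraries with a directional kit. Per the study's methods and the submitters' processing notes, the authors trimmed adapters (cutadapt 1.14), mapped to GRCh38 (HISAT2 2.1.0), counted reads per gene with featureCounts 1.5.3 over Ensembl release 89 and used edgeR 3.18.1. The authors deposited 1 table of FPKM values per gene and library, which follow TMM-scaled library sizes (factors 0.964 to 1.03). Its fold changes, p-values and FDR values are the authors' own comparison and were not used. Every column of library values matched 1 sample title.

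FPKM times gene length came out as whole reads for 100.0% of values (tolerance 0.01 reads), which gave the depth and the reads per gene. Genes that averaged 1 FPKM or more were tested in R 4.3.3 with limma 3.58.1 (mean-variance trend, log2(FPKM + 0.1), no covariates) on all 7 libraries, two-sided, with Benjamini-Hochberg adjustment over all genes tested and a threshold of 0.01. Fold changes on this scale understate those of low genes. The fit was also run on simulated reads with known changes. These had the same relative spread in every library and no trend on GC content, so they do not cover the deviation of siC replicate 3. Counting intervals and floors cover counting error only.

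The members, the gene lists, the tests and the alternatives were chosen with earlier results of these data known. Named are all 10 receptors, IGF2BP1, and in each list the genes past the threshold and the 3 with the highest mean FPKM. Any other gene is marked as named after its values were seen, except genes that overlap a receptor and marker genes. Positions, 3′UTRs and GC content come from GENCODE release 44 on GRCh38. Groups and replicate numbers come from the sample titles. The correlation of same-numbered siC and siImp1 libraries in their deviations from the group means was −0.026, −0.118 and −0.111. These values gave no sign that the numbers pair the libraries. They cannot exclude it, since the deviations also followed GC content. The 22 other settings cover the pseudocount, the filter, the scaling, the test, the threshold, GC content, the replicate block and leaving out each library. Of the listed hepatocyte markers, 1 is not reported here.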

Additional observations from a re-analysis of the deposited data

Results flagged for a closer look

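In siImp1, the group of 4 libraries, each named gene was examined for a library whose gap to its neighbour took most of the group's range (Dixon's ratio, critical value 0.829). Of 32 genes, 4 were beyond it, and chance flags about 1 in 20 groups. NR0B2 had its lowest value in replicate 3, 1.89 FPKM against 2.58 to 2.67 FPKM in the others (ratio 0.884). Replicate 3 had 29 NR0B2 reads, and without it the log2 change of NR0B2 was −0.70 instead of −0.82. NCOA2 was lowest in replicate 4, at 27.2 FPKM against 28.3 to 28.4 FPKM (ratio 0.894), just below the lowest siC library at 27.4 FPKM. ATP5B was lowest in replicate 2, at 347.8 FPKM against 392.4 to 395.3 FPKM (ratio 0.940). DHRS3 was lowest in replicate 2 as well, at 24.8 FPKM against 29.2 to 29.9 FPKM (ratio 0.858). The 3 siC libraries were too few for this examination.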

How the results depend on the processing

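Over the other settings listed above and the voom fit over genes with a mean of at least 10 reads, added after seeing the data, NR0B2 stayed lower in siImp1 (log2 change −0.89 to −0.64, adjusted p 0.00231 to 0.138), as did PPARA (−0.46 to −0.29, adjusted p 0.00596 to 0.319). RXRA also kept a negative log2 change, but its range reached almost to 0 (−0.244 to −0.003, adjusted p 0.0448 to 0.992). That of ESRRA was −0.328 to −0.139 (adjusted p 0.0187 to 0.629). With a filter at a mean of 5 FPKM, NR0B2 and PPARA were not tested. The number of receptors past the threshold, 0, became 1 with only protein-coding genes (NR0B2) or with voom (PPARA), and 2 with array weights, at 0.05 or in the added voom fit. It stayed 0 when any 1 library was left out. PPARA is called at 0.05 in 1 of those 7 fits and NR0B2 in 6, the exception being without siC replicate 2 (adjusted p = 0.0621).

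The replicate block, of numbers not known to pair the libraries, called 0 of 14831 genes. There IGF2BP1 was at −2.36 (adjusted p = 0.0960; −2.32 with the GC trend removed) and coregulators and targets had 0 calls, also with the GC trend removed. Coregulators past the threshold numbered 1 with scaling to total reads, median centring, quantile normalization or the GC trend removed, 0 with no filter or no trend, 3 with array weights, and 0 to 2 when a library was left out. Other receptors numbered 2 with only protein-coding genes, at 0.05 or with the GC trend removed, 3 with array weights, and 0 to 2 when a library was left out. Targets numbered 15 with array weights, 12 at 0.05, 11 in the added voom fit, and 3 to 10 when a library was left out. Ligand metabolism genes numbered 1 with only protein-coding genes, with array weights and at 0.05. For calls of all genes, 583, array weights gave 1022 higher and 1722 lower.

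Signs also turned for genes near 0. NR1H3 turned with array weights (−0.0866) and on leaving out a library (−0.107 to 0.160), NR1H4 with the block and the GC trend removed (−0.0029) and on leaving out a library (−0.0566 to 0.0885), and NR5A2 with scaling to total reads (0.0215), quantile normalization (0.0030), array weights (0.0176) and on leaving out a library (−0.0876 to 0.0226). NCOA2 turned with scaling to total reads (0.0028) and array weights (0.0055), and HNF4A with array weights (−0.0884). NR2F6 turned with scaling to total reads (0.0287), quantile normalization (0.0552), the GC trend removed (0.0046) and the block with the GC trend removed (0.0175). NR6A1 did so with these 4 settings (0.0529, 0.0356, 0.0118 and 0.0081) and median centring (0.0125), and ATP5B with quantile normalization (0.102). On leaving out a library, ranges with both signs were −0.119 to 0.0149 for NCOA2, −0.0055 to 0.121 for NCOR1, −0.101 to 0.171 for HNF4A, −0.0318 to 0.0019 for NR6A1, −0.0526 to 0.117 for ALDH1A1 and −0.0049 to 0.128 for RDH11. The causes were not tested. Of 686 values of single genes under these settings, 583 kept direction and side of the threshold.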
